A study of Mus musculus with 6 samples.

Results

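Cysteine protease inhibitors, lysosomal proteases and the protease substrate progranulin are described here in mouse T cells that carried the transcription factor E47. The 10 genes were Cst6, Cst3, Cst7 and Cstb, which encode cystatins, Ctsb, Ctsd, Ctsl, Ctss and Lgmn, which encode lysosomal proteases, and Grn, which encodes progranulin. They were 10 of the 18193 genes with a probe set named for 1 gene on the array, and 18 probe sets carried their symbols. A probe set is a group of short probes that read 1 stretch of transcript. The genes were chosen by family and from the E47 against control differences of these same arrays, of which the large difference of Cst6 was already known. Those differences are therefore a description. Where the calls of the array-wide fit among these genes are counted, the count is set beside the share of all probe sets called, and it is no independent test of the genes.

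CD4+CD25- cells were taken from lymph nodes of C57BL/6 mice, driven towards a regulatory T cell fate and transduced with 1 of 2 retroviruses. The E47 group carried E47-ER, and the control group carried a construct named bHLH-ER, about which the labels say no more than its name. ER is the ligand-binding part of the estrogen receptor, which keeps a fused protein inactive until tamoxifen is added. For 2 days cells of both groups grew on antibodies to CD3 (2 µg/ml) and CD28 (1 µg/ml), with TGF-β1 at 5 ng/ml and IL-2 at 200 U/ml, and virus was added on day 1. They were then sorted as CD4+Thy1.1+ and given 6 hours of antibodies, IL-2 and 1 µM tamoxifen. Each of 3 independent experiments gave 1 control and 1 E47 sample, from pools of 3, 3 and 4 mice aged 7, 8 and 9 weeks. Because every sample received tamoxifen, effects of those hours and effects of the constructs before them cannot be told apart. Levels are log2 of the deposited intensity and differences are E47 minus control on that scale. SE is that of the paired limma fit, and SD is over the 3 samples of a group.

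Lysosomal proteases are made as inactive precursors and cut proteins inside acidic vesicles. Most cathepsins, and legumain, cut with a cysteine in the active site, whereas cathepsin D uses aspartates. Cystatins plug the active site of cysteine cathepsins, and some, cystatin E/M and cystatin C among them, also block legumain through a separate site. Progranulin is secreted or carried to the lysosome, where cathepsins cut it into granulins. In the immune system these proteases are best known for preparing antigens and the invariant chain in antigen-presenting cells and for activating granzymes in cytotoxic lymphocytes.

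Markers of T cells, of regulatory T cells and of other cell types were read in the sorted cells. By their mean over all 6 arrays, all 8 measured T cell markers, such as Cd3e and Cd4, lay above the median level of all probe sets. So did all 5 regulatory T cell markers, such as Foxp3 and Il2ra. The regulatory T cell markers summed to intensities of 12097 to 13546 in control and 9874 to 11943 in E47 samples, and none of the 5 was called. Most of that sum came from Tnfrsf18, Ctla4 and Il2ra, with control means of 12.72, 11.48 and 11.14, against 6.96 for Foxp3. On that same mean over all 6 arrays, the median was also passed by 2 of 5 B cell and 4 of 6 epithelial markers. Passing it does not by itself identify a cell type. Among those epithelial markers, Cdh1 and Krt8 had control means of 3.94 and 5.02, below the median of 5.12. They passed through their E47 means of 7.48 and 5.46. CD8 and NK cell markers were present too, with Cd8a, Cd8b1, Klrd1 and Eomes above the median, Ncr1 below it and none of the 5 called. Their summed intensity was 352 to 813 in control and 458 to 872 in E47 samples. The differences of Eomes (0.60), Cd8b1 (0.51) and Cd8a (0.24) were positive, and those of Klrd1 (-0.04) and Ncr1 (-0.12) negative. Experiment 2 stood apart in some markers. Foxp3 had means over control and E47 of 6.39, 8.00 and 6.18 in experiments 1 to 3 (F test of the experiment in limma, adjusted p = 0.0146), and Klrd1 had 7.17, 8.57 and 6.80 (adjusted p = 0.0392). The part of these differences in the values of experiment 2 given for Cst6 and Ctsl was not tested. Macrophage and dendritic cells are rich in several of the proteases described here. Of 13 markers of those cells, 7 lay at or below that median, Lyz2, Itgam, Itgax, Adgre1, Fcgr3, Cd14 and Tyrobp. The other 6, Csf1r, Cd68, Spi1, Fcer1g, Cd74 and H2-Aa, lay above it, and none of the 13 was called. The summed intensity of the 13 was 667 to 738 in control and 627 to 643 in E47 samples, lower in every E47 sample. Cd74 was the brightest marker in that sum. The differences of H2-Aa (0.33), Itgam (0.11) and Cd68 (0.10) were positive and those of the other markers negative. In bulk RNA a change in the number of cells of a type and a change of RNA per cell cannot be told apart.

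Cst6 and Grn were higher in E47 samples, Cst6 by 22.0-fold and the 3 Grn probe sets by 3.07-fold to 3.50-fold. These 4 probe sets, of 2 genes, were the members called in the paired limma fit over 45037 probe sets, at an adjusted p under 0.05. Among all probe sets 0.238% were called higher and 0.0333% lower. The E47 and control samples did not overlap in 7 member probe sets with E47 higher (Cst6, both of Cstb, 1 of Ctsl and all 3 of Grn) and 2 with E47 lower (Cst3 and Cst7). Among all probe sets the groups were apart with E47 higher in 4.57% and with E47 lower in 6.65%. The median difference was 0.14 over the 18 member probe sets, 12 of them higher in E47. Over all probe sets it was -0.02, with 44.7% higher in E47. Without experiment 2 Cst6 was the 1 gene called, where 0.0755% of all probe sets were called higher and 0 lower. Without experiment 3 no member was called, against 4 probe sets over the whole array. Cst7 was called lower in 4 of the 10 alternatives, those with 1 probe set per gene, with probe sets above the median, with an intensity trend and without experiment 1. The shares of all features called lower there were 0.363%, 0.182%, 0.435% and 0.144%. Cstb was called higher with 1 probe set per gene and, in both its probe sets, with the trend, where 0.781% and 0.804% of all features were called higher.

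**Figure D1:**
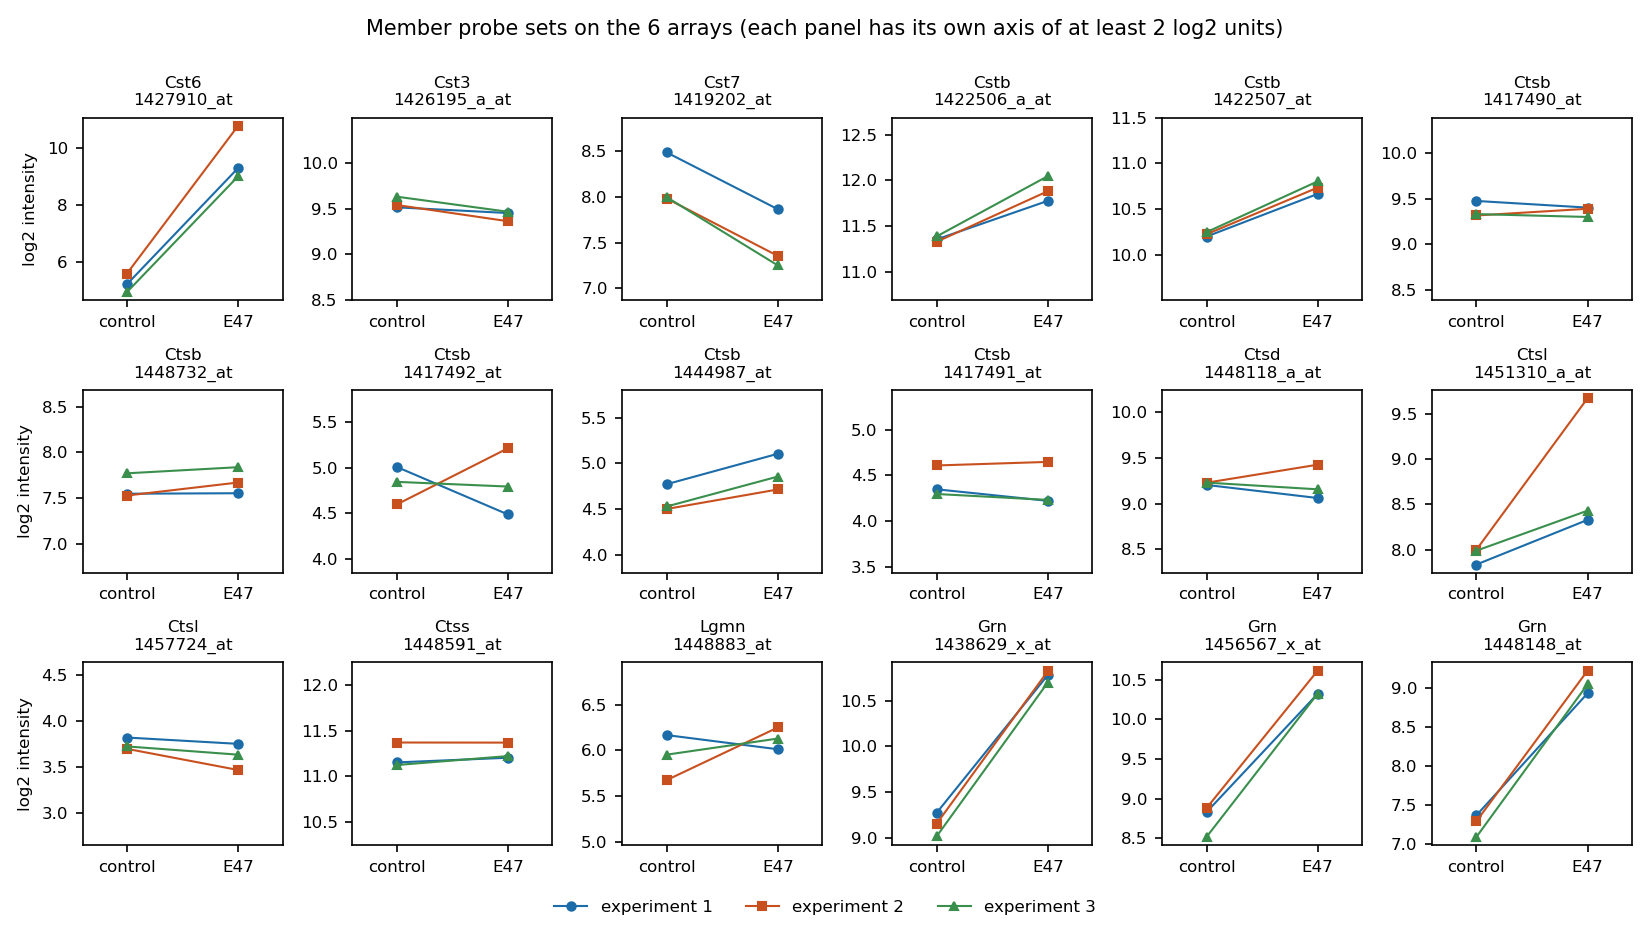
Log2 intensity of each member probe set (vertical axis, its own range in each panel) in control and E47 samples (horizontal axis), with a line for each of the 3 experiments. Cst6 and the 3 Grn probe sets slope upwards in every experiment, Cst7 slopes downwards, and the lines of Ctss and of the brightest Ctsb probe set are nearly flat.

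Among the cystatins, Cst6 encodes cystatin E/M, an inhibitor best known from skin and other epithelia. Its probe set 1427910_at had log2 levels of 5.21, 5.59 and 4.94 in control samples 1 to 3 and 9.31, 10.80 and 9.02 in E47 samples 1 to 3. Every E47 sample lay far above every control sample, and E47 sample 2 was the highest. The difference was 4.46 (SE 0.23), from a control mean of 5.25 ± 0.33 to an E47 mean of 9.71 ± 0.95 (SD, n = 3). It was 4.09, 5.21 and 4.08 in experiments 1 to 3, and 4.09 without experiment 2. The control mean was near the median of all probe sets, 5.12, and detection above background was not given, so the fold can understate the change.

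Epithelial markers were set beside Cst6. Their summed intensity over 6 genes was 237 to 367 in control and 843 to 2428 in E47 samples. Epcam and Cdh1 were called higher, while Krt14 and Krt18 were dimmer than the median probe set and Krt5 had a difference of 0.02. Krt8 had a difference of 0.44 (SE 0.13), with 0.64, 0.59 and 0.07 in experiments 1 to 3 and the groups apart, and it was not called. The part of these markers in the Cst6 result was not tested. Over the 6 arrays, the 5 of 18193 genes whose centred log2 values lay nearest to those of Cst6, by Euclidean distance, were Cxcr5 (1.44), Cidea (1.59), Epcam (1.81), Gprin2 (1.86) and D13Ertd608e (2.10). That distance includes the E47 minus control difference already known for Cst6. Genes with a large rise therefore lie nearest, and the ranking is only a description. Cxcr5 had means of 6.60, 6.64 and 6.64 in experiments 1 to 3, without the higher level of Cst6 in experiment 2. Cdh1 differed between experiments, with means of 4.73, 7.61 and 4.80 (limma F test, adjusted p = 0.0146). Epcam had its highest control and its highest E47 level in experiment 2, as Cst6 did.

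Cst7 encodes cystatin F, an inhibitor made by blood cells that enters the lysosome and acts on the cathepsins that activate granule proteases. Its probe set had 8.49, 7.98 and 8.00 in control and 7.86, 7.35 and 7.25 in E47 samples. All E47 samples lay below all control samples, by 0.62, 0.63 and 0.75 within experiments, and the mean difference was -0.66 (SE 0.08). Sample 1 was the highest of each group. The nearest patterns over the 6 arrays belonged to Egr2, an early response factor (distance 0.19), Nrn1 (0.32), Icos, a costimulatory receptor (0.34), Tbx21, the Th1 factor T-bet (0.35), and F2r (0.36). All of these were lower in E47, and the distance again includes that difference, so this ranking too is only a description.

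Cstb encodes cystatin B, which stays inside the cell. Probe set 1422506_a_at had 11.35, 11.33 and 11.39 in control and 11.77, 11.88 and 12.05 in E47 samples, a difference of 0.54 (SE 0.09). Probe set 1422507_at had 10.20, 10.22 and 10.25 in control and 10.66, 10.73 and 10.80 in E47 samples, a difference of 0.51 (SE 0.08). The groups were apart in both probe sets, and the gap between them was wider than the range within either group. Cst3 encodes cystatin C, a secreted inhibitor of most tissues. It had 9.51, 9.54 and 9.63 in control and 9.45, 9.36 and 9.47 in E47 samples, with a difference of -0.13 (SE 0.08) and the groups only just apart.

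**Figure D2:**
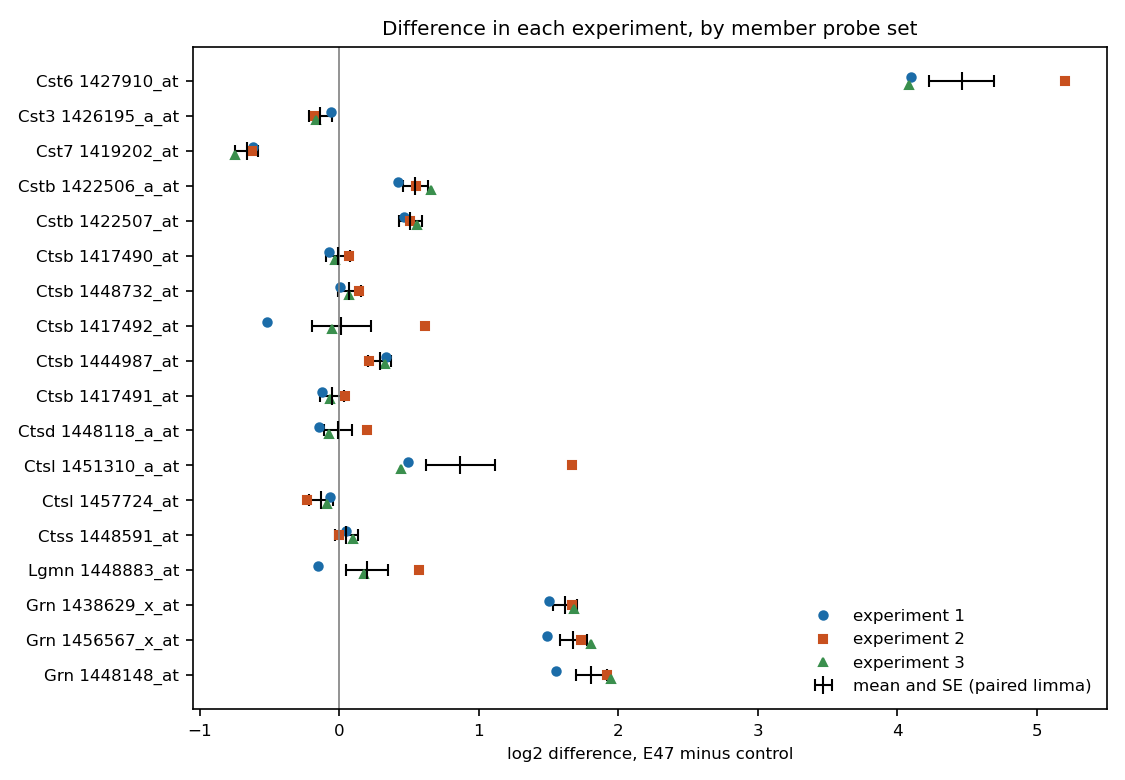
Log2 difference, E47 minus control (horizontal axis), in each of the 3 experiments (coloured symbols) and as the mean with its SE (black) for every member probe set (vertical axis). Cst6 is farthest to the right at 4.46, the Grn probe sets group between 1.62 and 1.81, and experiment 2 stands apart from the others for Cst6 and for Ctsl probe set 1451310_a_at.

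Grn, whose product is cut by cathepsins and binds the sorting receptor sortilin, was read by 3 probe sets. Probe set 1438629_x_at had 9.27, 9.16 and 9.02 in control and 10.78, 10.82 and 10.70 in E47 samples. Probe set 1456567_x_at had 8.83, 8.88 and 8.52 in control and 10.32, 10.61 and 10.32 in E47 samples. Probe set 1448148_at had 7.37, 7.30 and 7.10 in control and 8.93, 9.22 and 9.04 in E47 samples. In each of the 3, the lowest E47 sample was more than 1 log2 unit above the highest control sample. The differences were 1.62 (SE 0.09), 1.68 (SE 0.10) and 1.81 (SE 0.11), and within single experiments they ran from 1.49 to 1.95. Grn differed less between experiments than Cst6, whose SD over the 3 differences was 0.65 against 0.10, 0.16 and 0.22 for the Grn probe sets. Because these probe sets share samples and a gene, they are not separate evidence, and names ending in _x_at mark probes that can match other transcripts.

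Ctsl encodes cathepsin L, a cysteine protease that trims the invariant chain and also cuts progranulin. Probe set 1451310_a_at had 7.84, 8.00 and 7.99 in control and 8.33, 9.67 and 8.43 in E47 samples. The E47 samples were all above the controls, and E47 sample 2 lay well above the other two. The difference was 0.49, 1.67 and 0.44 in experiments 1 to 3, with a mean of 0.87 (SE 0.25) that dropped to 0.47 without experiment 2. The dim probe set 1457724_at, at 3.47 to 3.82 on all 6 arrays, had a difference of -0.13 (SE 0.09) and overlapping groups.

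The other proteases had smaller differences. Ctss encodes cathepsin S, the main enzyme of invariant chain removal in antigen-presenting cells, and had 11.15, 11.37 and 11.12 in control and 11.20, 11.37 and 11.22 in E47 samples (difference 0.05, SE 0.08). Ctsd, the aspartic protease cathepsin D, had 9.20, 9.23 and 9.23 in control and 9.06, 9.43 and 9.16 in E47 samples (difference -0.01, SE 0.10). In both genes the groups overlapped, and the difference was smaller than its SE. Lgmn, which encodes legumain, an asparagine-specific protease that matures cathepsins, had 6.17, 5.68 and 5.95 in control and 6.01, 6.25 and 6.13 in E47 samples. Its difference was 0.20 (SE 0.15) with opposite signs in experiments 1 (-0.15) and 2 (0.57).

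Ctsb, the gene of cathepsin B, had 5 probe sets, and the groups overlapped in all of them. The brightest, 1417490_at, had 9.47, 9.31 and 9.33 in control and 9.40, 9.39 and 9.30 in E47 samples, a difference of -0.01 (SE 0.08). The next, 1448732_at, had a difference of 0.07 (SE 0.08). The other 3 were dimmer than the array's median probe set, with differences of 0.01 (SE 0.21), 0.29 (SE 0.08) and -0.05 (SE 0.08). The value of 0.29 belonged to 1444987_at, which was higher in E47 in each experiment (0.33, 0.21 and 0.33) at levels between 4.50 and 5.11.

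RefSeq promoter windows on GRCm38.p6, from 250 bases before to 50 bases after a start site, were held for 7 of the 10 genes, in 8 windows. None was held for Cst6, Cstb or Ctsb. E47 binds E-boxes, 6 bases of the form CANNTG, which read as the same form on both strands. At least 1 was found in 7 of the 8 windows, and in 72.3% of all 32851 windows of that length. The form CAGGTG, or its reverse CACCTG, was in none of the 8 and in 20.2% of all. CAGCTG was in 4 (Cst3, Ctss, Ctsd and 1 window of Lgmn) and in 16.3% of all. CACGTG was in 3 (Ctsd, Ctsl and 1 window of Lgmn) and in 7.2% of all. These 3 forms are cases of CANNTG, and a match is only a match of letters. The windows of Grn, Ctsl and Cst7 are shown because these genes had the largest differences among those with a window, and that of Ctsd because it holds 2 CACGTG. Capitals mark every CANNTG, and each window is printed 5′ to 3′ on the strand of its gene: Grn at chr11:102430257-102430556, plus strand, Ctsl at chr13:64370471-64370770, minus strand, Cst7 at chr2:150570165-150570464, plus strand, and Ctsd at chr7:142387778-142388077, minus strand.
Grn: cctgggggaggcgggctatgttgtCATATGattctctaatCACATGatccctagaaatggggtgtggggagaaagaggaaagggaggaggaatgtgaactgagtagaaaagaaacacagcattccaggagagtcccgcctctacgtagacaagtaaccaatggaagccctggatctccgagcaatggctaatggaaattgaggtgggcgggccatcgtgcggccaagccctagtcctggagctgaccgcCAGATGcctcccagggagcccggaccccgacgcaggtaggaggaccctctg
Ctsl: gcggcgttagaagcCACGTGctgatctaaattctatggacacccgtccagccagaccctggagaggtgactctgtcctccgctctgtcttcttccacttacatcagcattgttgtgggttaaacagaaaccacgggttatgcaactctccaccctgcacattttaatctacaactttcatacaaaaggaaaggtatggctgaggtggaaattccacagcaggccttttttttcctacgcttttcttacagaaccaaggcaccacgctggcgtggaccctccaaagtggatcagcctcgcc
Cst7: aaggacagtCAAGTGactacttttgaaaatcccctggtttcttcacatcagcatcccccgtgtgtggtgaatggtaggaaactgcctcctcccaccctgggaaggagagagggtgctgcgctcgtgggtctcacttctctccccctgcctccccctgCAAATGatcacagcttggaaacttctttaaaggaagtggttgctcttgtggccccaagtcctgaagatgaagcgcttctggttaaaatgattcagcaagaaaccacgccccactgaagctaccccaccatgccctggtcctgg
Ctsd: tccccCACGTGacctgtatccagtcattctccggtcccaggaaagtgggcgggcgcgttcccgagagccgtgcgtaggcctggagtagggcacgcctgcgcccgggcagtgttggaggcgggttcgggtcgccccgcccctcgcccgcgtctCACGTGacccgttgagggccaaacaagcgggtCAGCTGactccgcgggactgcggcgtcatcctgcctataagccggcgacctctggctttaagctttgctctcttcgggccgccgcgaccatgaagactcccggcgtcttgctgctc

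In the Grn window E-boxes began at -226 (CATATG), at -210 (CACATG) and at -1 (CAGATG) from the start site. The Ctsl window held 1, a CACGTG at -236. The Cst7 window held CAAGTG at -241 and CAAATG at -93. In the Ctsd window CACGTG stood at -245 and -98 and CAGCTG at -66.

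Differences between the 3 experiments do not use the E47 against control contrast and were tested. No member probe set was called by the F test of the experiment in limma, with adjusted p from 0.136 to 0.946, while 0.604% of all probe sets were. At an unadjusted p under 0.05 there were 4 of 18 member probe sets, against 12.7% of all probe sets. The smallest adjusted p was that of Cst7 (0.136), whose mean over control and E47 was 8.17 in experiment 1, 7.67 in experiment 2 and 7.62 in experiment 3. Cst6 had means of 7.26, 8.19 and 6.98 (adjusted p = 0.244), the widest range among the members, 1.22. Ctsl probe set 1451310_a_at had 8.08, 8.84 and 8.21 (adjusted p = 0.491), with its high value in experiment 2 carried by the E47 sample alone. The median range between experiments was 0.20 over member probe sets and 0.19 over all. Cst7 also passed in the fit with an intensity trend in the variance.

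**Figure D3:**
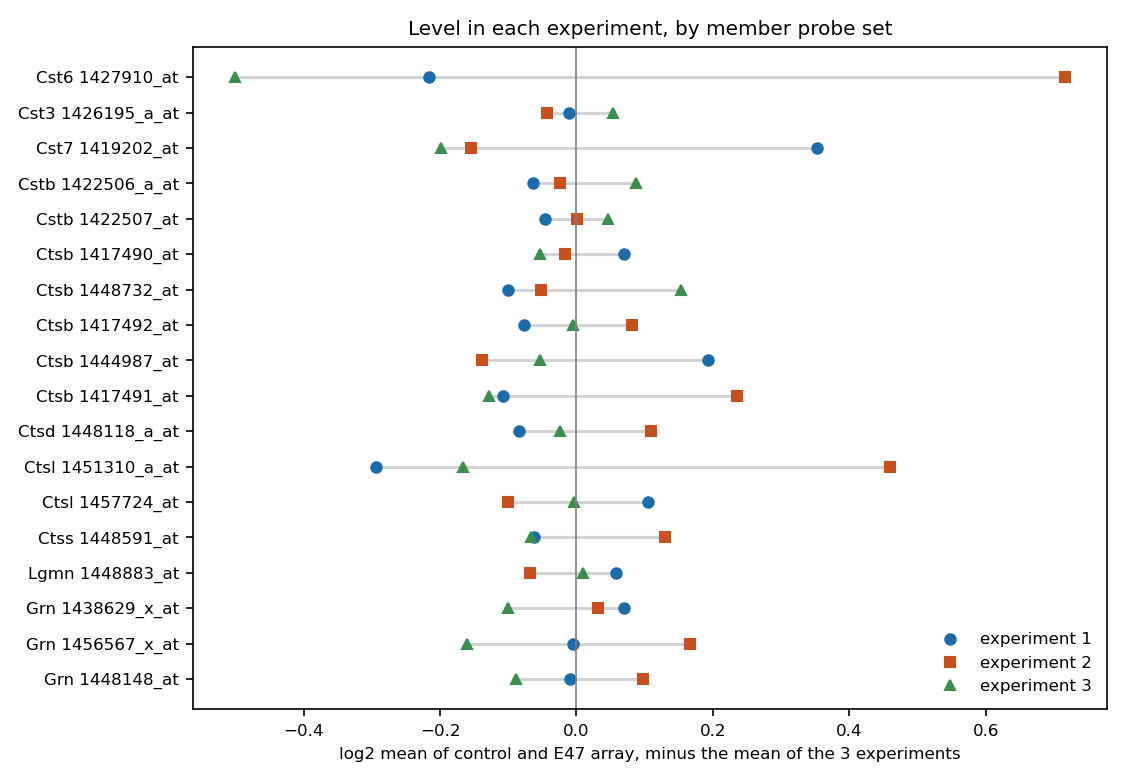
Mean log2 level of the control and the E47 array of each experiment, minus the mean over the 3 experiments (horizontal axis), for every member probe set (vertical axis). Experiment 2 is highest for Cst6 and for Ctsl probe set 1451310_a_at, experiment 1 is highest for Cst7, and none of these ranges passed the test.

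Other genes of these pathways were counted in 7 lists chosen by family and function, 110 symbols of which 93 were measured by 152 probe sets. By limma 0 of the 152 were called in either direction, against the array's 0.238% higher and 0.0333% lower. At an unadjusted p under 0.05, 8 were higher and 8 lower, 5.26% each, against 4.33% and 4.74% of all probe sets. The median difference over the 152 was -0.02.

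Of the 12 other cystatin genes measured, 0 passed in limma, and 0 of their 13 probe sets did at an unadjusted p under 0.05. Fetub, a liver relative of the cystatins, had a difference of -0.19 (SE 0.10). Stfa3, a stefin, had 0.15 (SE 0.09) between groups but differed between experiments (adjusted p = 0.00960), with means of 7.62, 5.64 and 7.54 and thus its low level in experiment 2. Among 19 other cathepsin genes 0 passed, with 1 probe set higher and 2 lower at an unadjusted p under 0.05. Ctsj (-0.33, SE 0.10) and Ctsll3 (-0.27, SE 0.09) had the smallest p. Both were dim, with control means of 2.99 and 3.49, so their differences are limited by signal. Among 7 other cathepsin inhibitors 0 passed, with 2 higher and 1 lower unadjusted. Serpinb1a (0.37, SE 0.10) and Serpinb6a (-0.26, SE 0.08) were nearest, and Serpinb1a differed between experiments (adjusted p = 0.0290; means 3.53, 4.80 and 3.65).

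The list named granule proteases held 11 genes, among them Prf1, perforin, and Srgn, serglycin, which are granule proteins but not proteases. None passed in limma. At an unadjusted p under 0.05, 2 probe sets were lower, that of Gzmb, granzyme B (-0.28, SE 0.09), and 1 of Prf1 (-0.22, SE 0.09). Of 25 lysosome and sorting genes 0 passed, with 3 probe sets higher and 1 lower unadjusted. Npc1, which exports cholesterol from the lysosome, had 0.45 (SE 0.11), and M6pr, a mannose 6-phosphate receptor, -0.32 (SE 0.10). The 52 lysosome and sorting probe sets had a median of 0.04, with 34 higher in E47, where 44.7% of all probe sets were higher. Several of these genes had more than 1 probe set, so the 52 are not separate counts. Of 12 genes of progranulin partners 0 passed, with 1 higher and 1 lower unadjusted. Epha2, a receptor tyrosine kinase that can bind progranulin, had 0.64 (SE 0.08, limma adjusted p = 0.0751, range 0.0221 to 0.570 over the alternatives), and Tnfrsf1b, a TNF receptor, -0.27 (SE 0.09). Of 7 antigen processing genes 0 passed, with 1 higher and 1 lower unadjusted, H2-Aa (0.42, SE 0.10) and Cd74, the invariant chain (-0.25, SE 0.08).

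**Figure D4:**
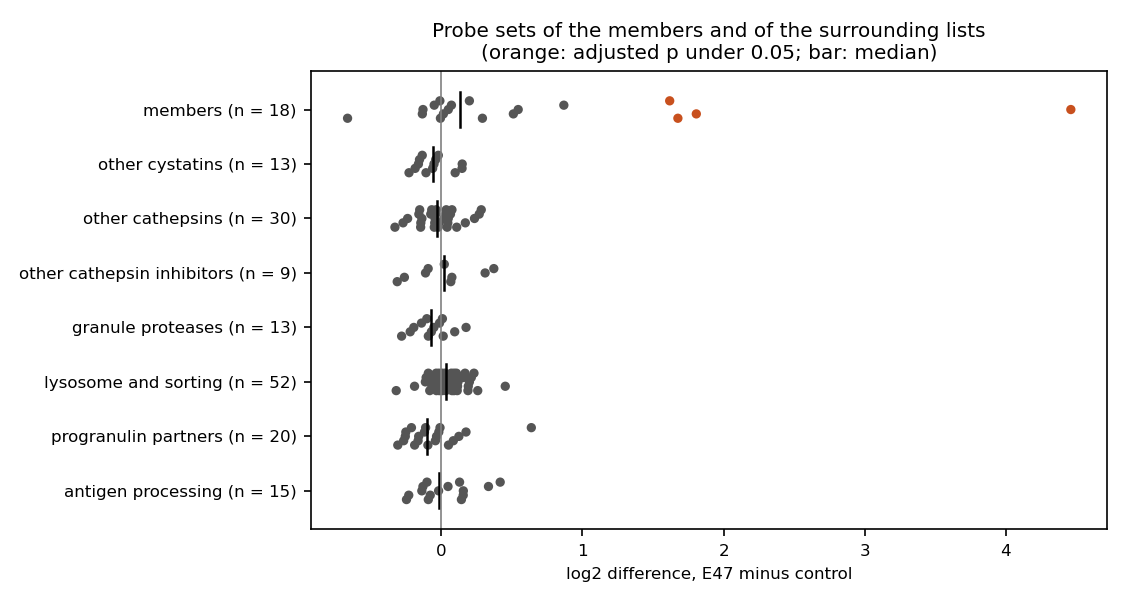
Log2 difference, E47 minus control (horizontal axis), of each probe set of the members and of the 7 surrounding lists (vertical axis), with a bar at the median and orange for probe sets with an adjusted p under 0.05. The orange points are the Cst6 and Grn probe sets, and every list has its median between -0.10 and 0.04.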

How the data were processed

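RNA of 6 samples was measured on Affymetrix mouse arrays. The authors deposited 1 linear intensity per probe set and array, made with RMA per the submitters' processing notes, which give no version. RMA corrects background, equalises the arrays and summarises probes. Intensities ran from 4.26 to 26755, with array medians of 34.3 to 35.4. They carry no read depth, and 3 arrays per group limit the precision.

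Log2 was taken and 64 control probe sets were left out, leaving 45037, of which 34945 had 1 gene symbol in GEO's platform annotation. No dim probe set was removed. E47 was compared with control in limma 3.58.1 (R 4.3.3, lmFit and eBayes, two-sided) with the experiment as a block. The threshold was 0.05 on the Benjamini-Hochberg adjusted p over all probe sets, and an F test of the block compared experiments. The paired fit rests on the design text, which gives 1 control and 1 E47 sample per experiment. Deviations from group means correlated at 0.09, 0.52 and 0.31 between same-numbered arrays, the first under the limit of 0.1.

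Members and lists were chosen with earlier results of these data known. Named list genes were up to 4 called and the 2 uncalled with the smallest p. Alternatives were the fit without the block, a random block, other scalings, a filter, 1 probe set per gene, a variance trend and leaving out each experiment. The script was tested on simulated data.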

Additional observations from a re-analysis of the deposited data

How the results depend on the processing

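Cst6 and Grn were higher in E47 in each of the 3 experiments, so leaving 1 out could not change the sign of their differences. Changing only the block or the variance model does not alter the differences themselves in this balanced design. Leaving out 1 experiment gave 4.09 to 4.65 for Cst6 and 1.59 to 1.93 over the 3 Grn probe sets. Ctsl probe set 1451310_a_at had 0.87, and 0.47 without experiment 2, and Ctsl had 0.37 as the mean over its probe sets. Probe sets called between E47 and control numbered 122 in the paired fit (107 higher) and 52 with no replicate block (all 52 higher), where Cst6 and Grn were still the called members. The number was 208 with 1 probe set per gene and 558 with an intensity trend, and from 4 (without experiment 3) to 551 (without experiment 1) with an experiment left out. The 0 called probe sets of the pathway lists became 1, that of Epha2, with a random block, with probe sets above the median, with 1 probe set per gene and with the trend, and were 0 to 1 with an experiment left out. Probe sets called between experiments numbered 272, with 609 above the median, 582 with 1 per gene, 1710 with the trend, and 0 to 1120 with an experiment left out. Member probe sets called between experiments numbered 0, and 1 with the trend, Cst7. Dim probe sets of Ctsb and Ctsl had no measure of background, so their small differences are limited by signal.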
